A study of Mus musculus with 16 samples.

Results

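Ribosomal protein genes were taken as the rows of the count table whose symbol is Rpl, Rps, Mrpl or Mrps followed by a number and optional letters. The rule found 158 of 35976 rows. Of these, 81 carry symbols of the cytoplasmic ribosome (49 Rpl of the large subunit and 32 Rps of the small subunit) and 77 of the mitochondrial ribosome (48 Mrpl and 29 Mrps). A protein-coding transcript was annotated for 78 of the 81 and for all 77. The samples were mouse neural tube organoids on day 4, grown from R1 embryonic stem cells with a FOXA2-Venus reporter genotype and given retinoic acid (RA) for 18 hours, all of which the groups share. FOXA2, a forkhead transcription factor, is made by floor plate cells, which lie along the ventral edge of the neural tube. Cells came from FOXA2 negative, low, medium and high gates, with 4 libraries each, named here by gate and number (low 1, medium 2). All come from a single cell line. Whether libraries of a gate are separate cultures is not given, and p-values therefore rest on a spread that may be technical. Total RNA was profiled by BRB-seq, which reads the 3′ ends of transcripts after giving each sample a barcode and pooling them.

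The cytoplasmic ribosome makes nearly all proteins of a cell, and its proteins are needed in matched amounts. Many of their mRNAs begin with a C followed by a tract of pyrimidines, the terminal oligopyrimidine (TOP) motif, through which mTOR and LARP1 control their translation. The mitochondrial ribosome is a separate machine whose proteins are all encoded in the nucleus, and it translates the respiratory chain subunits that mitochondrial DNA encodes. Several cytoplasmic proteins also have a second gene, often an intronless copy made by reverse transcription of the parent mRNA, and some of these copies are used mainly in the male germ line.

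Libraries held 3268948 to 9961032 counts. Foxa2 itself averaged 2.90 ± 1.68, 11.9 ± 3.01, 51.8 ± 9.33 and 113 ± 18.1 CPM (counts scaled to a common library total with TMM factors; SD, n = 4 each) in the negative, low, medium and high gates. Pax6 and Hes5, neural tube markers, were present in every library, while Sox1 and Sox2 had 0 counts in all 16. By counting error alone, a count of 0 allows about 3 counts at the 95% level, or 0.306 to 0.911 CPM. Whether reads of Sox1 and Sox2 were lost in annotation or assignment is not given, so their absence cannot be read from these counts. Low 1 and medium 2 stood apart from the other libraries on the third principal component of all genes (9.30% of the variance, scores 28.4 and 34.8), so counts of calls are given with and without them. In bulk samples, fewer cells of a type and less RNA per cell cannot be told apart.

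Promoter sequences around the start of transcription were compared because the members are known for shared start-site motifs. RefSeq promoters (GRCm38.p6, 250 bases before to 50 after the start) were matched for 129 members by symbol, 61 cytoplasmic and 68 mitochondrial. The windows below hold 45 bases before and 30 from the start, 5′ to 3′ on the gene's strand. Capitals mark a TOP tract at the start (C and then at least 4 of C or T), CTTTCC within 25 bases of the start, CCGGAAG (a core of ETS factor motifs, either strand) or AAGATGGC (a core of the YY1 motif, either strand). Rpl38, Rps27 and Rps6 show the TOP start, the 2 parent and copy pairs and the copy Rpl36al are the genes that the cytoplasmic results turn on, and Mrps31 and Mrps7 stand for the mitochondrial ones.
Rpl38, chr11:114668535-114668609, plus strand: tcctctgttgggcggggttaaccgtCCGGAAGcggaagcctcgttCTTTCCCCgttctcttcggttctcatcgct
Rps27, chr3:90213619-90213693, minus strand: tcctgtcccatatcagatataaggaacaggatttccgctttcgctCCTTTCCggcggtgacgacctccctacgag
Rps6, chr4:86857338-86857412, minus strand: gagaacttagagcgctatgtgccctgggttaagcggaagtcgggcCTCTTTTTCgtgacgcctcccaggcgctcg
Rpl39, chrX:37085193-37085267, minus strand: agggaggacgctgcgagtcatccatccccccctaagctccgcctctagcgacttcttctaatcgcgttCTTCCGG
Rpl39l, chr16:10170183-10170257, plus strand: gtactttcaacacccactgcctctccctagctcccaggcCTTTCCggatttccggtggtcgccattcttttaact
Rpl10, chrX:74270771-74270845, plus strand: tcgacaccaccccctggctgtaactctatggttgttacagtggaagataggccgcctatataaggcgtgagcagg
Rpl10l, chr12:66284372-66284446, minus strand: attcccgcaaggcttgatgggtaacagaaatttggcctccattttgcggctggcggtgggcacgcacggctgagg
Rpl36al, chr12:69184038-69184112, minus strand: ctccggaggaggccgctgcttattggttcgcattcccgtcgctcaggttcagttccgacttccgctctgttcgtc
Mrps31, chr8:22411295-22411369, plus strand: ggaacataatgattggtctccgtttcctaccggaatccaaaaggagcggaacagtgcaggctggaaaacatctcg
Mrps7, chr11:115604095-115604169, plus strand: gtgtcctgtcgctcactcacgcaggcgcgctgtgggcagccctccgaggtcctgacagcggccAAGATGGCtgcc

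A TOP tract at the annotated start was found in 14 of 61 cytoplasmic promoters (23.0%) and in 0 of 68 mitochondrial ones. It was found in 3.01% of all 27025 genes of the RefSeq table. The tract had to begin at the first base of the annotated start, so a start annotated some bases away would be missed. The 14 include Rpl32l, which had 0 counts in every library. CTTTCC near the start was found in 19.7% of cytoplasmic and 2.94% of mitochondrial promoters beside 2.92% of all. The ETS core CCGGAAG was found in 37.7% of cytoplasmic and 36.8% of mitochondrial promoters beside 9.93% of all. The YY1 core AAGATGGC was found in 8.2% of cytoplasmic and 17.6% of mitochondrial promoters beside 3.19% of all. The TATA box TATAAA (either strand) was found in 9.84% of cytoplasmic and 7.35% of mitochondrial promoters beside 15.7% of all. CTTTCC can lie inside a TOP tract, as in Rps27, CCGGAAG read on the other strand can begin inside one, and CCGGAAG can share its last bases with AAGATGGC. The motifs other than TOP and CTTTCC were searched over the whole 300 bases. Among the called copies, Rpl10l and Rpl36al held none of these motifs there. These matches describe letters in a window and were not tested for binding or use.

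Cytoplasmic ribosomal protein genes took 13.6% to 16.2% of all counts in each library. Their share was 15.3% ± 1.00 in the negative, 15.0% ± 0.895 in the low, 15.5% ± 1.26 in the medium and 15.0% ± 0.643 in the high gate (SD, n = 4 each), and the range of the 4 means was narrower than the range of libraries within each gate. Mitochondrial members together took 1.08% ± 0.0156, 1.03% ± 0.0343, 1.04% ± 0.0898 and 1.01% ± 0.0117 (SD, n = 4 each). The 4 high libraries (0.992% to 1.02%) all lay below the 4 negative libraries (1.05% to 1.09%). Low 1 and medium 2 lay below all high libraries. The other low (1.04% to 1.06%) and medium libraries (1.06% to 1.11%) lay above all high ones. The lowest shares of both classes were in low 1 (14.0% and 0.979%) and medium 2 (13.6% and 0.908%). For comparison, the 13 genes encoded by mitochondrial DNA took 1.61% to 2.42% of counts, at 2.05% ± 0.162 in the high and 1.98% ± 0.151 in the negative gate (SD, n = 4 each).

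**Figure D1:**
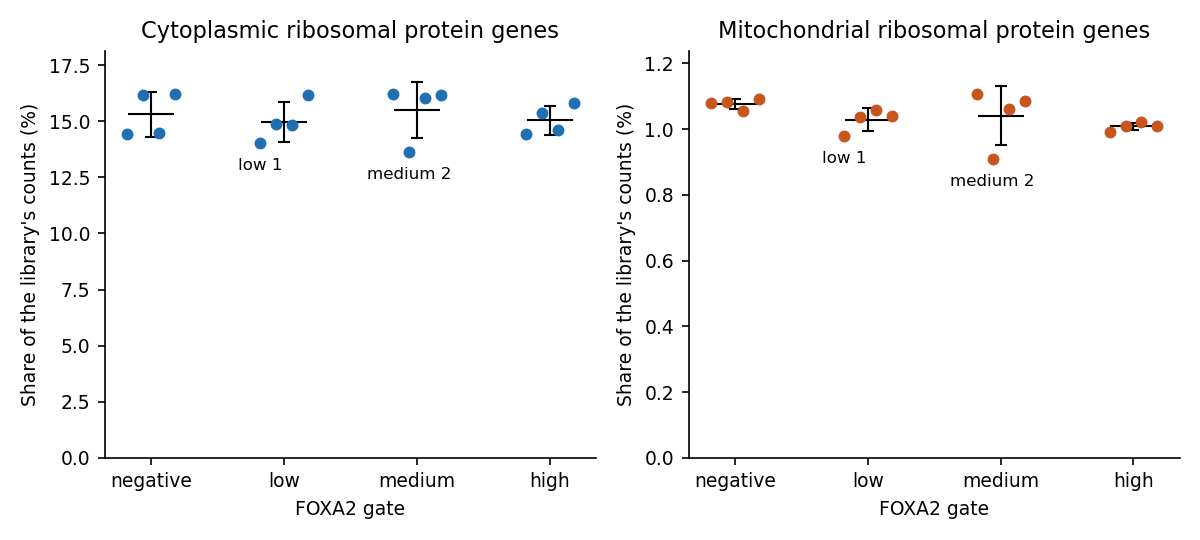
Share of each library's counts (%) on cytoplasmic (left) and mitochondrial (right) ribosomal protein genes by FOXA2 gate. Points are libraries, bars the mean and SD of 4, and both axes start at 0. The cytoplasmic share lies between 13.6% and 16.2% throughout, the mitochondrial share of the high gate lies below that of the negative gate, and low 1 and medium 2 have the lowest points.

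Single members spanned a wide range of levels. Since BRB-seq counts transcript ends, CPM was not divided by gene length, and an order of genes by CPM also reflects how reads from near-identical copies were assigned. Among the 79 cytoplasmic members tested, the mean over 16 libraries ran from 5.07 CPM (Rpl39l) through a median of 1134 to 15329 CPM (Rpl41), and among the 76 mitochondrial ones from 1.54 CPM (Mrps18b) through 105 to 557 CPM (Mrps15). By the GENCODE M21 annotation (GRCm38, the build of the counts), 33 of the 78 cytoplasmic members with a transcript share over 50% of the 50-base words in their last 400 bases with transcripts of other genes, against 2 of 77 mitochondrial members (Mrpl23 and Mrpl53). Rps6, a TOP mRNA, shares 88.0% of these words and was counted at 71.4 to 119 CPM, so its level and that of the other 32 is uncertain. The coefficient of variation within gates (the SD pooled over the 4 gates, over the mean of the gate means) had a median of 9.66% over cytoplasmic and 11.5% over mitochondrial members. By this measure the highest values were 32.6% for Rpl10l, of which negative 1 was far above the rest, and 53.6% for Mrps18b, both low in counts.

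The 3 members that were not tested were below the filter on low counts. Rpl3l, a copy of Rpl3 known from striated muscle, had 45 counts over 16 libraries and at most 1.41 CPM. Rpl32l, a processed pseudogene in GENCODE, and Mrpl33, of the large mitochondrial subunit, had 0 counts in all 16. Mrpl33 shares 24.2% of its end with another gene and overlaps 2 others. Genes that the name rule leaves out included 12 pseudogene rows, which held 0.0113% to 0.0147% of counts, and 10 kinases named Rps6k.

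After removal of the gate means, members moved together from library to library. The mean correlation between pairs of genes over the 16 libraries was 0.445 among cytoplasmic and 0.315 among mitochondrial members, and 0.000397 among all genes tested. Pairs of a cytoplasmic and a mitochondrial member had a mean of 0.328. These points share library, depth and scaling, and without low 1 and medium 2 the mean was 0.363 among cytoplasmic members, 0.065 among mitochondrial members and 0.117 between the classes. Much of the mitochondrial value and of the value between classes therefore rested on those libraries, in which 65 and 69 of 79 cytoplasmic members and 54 and 71 of 76 mitochondrial members lay below their gate's mean.

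**Figure D2:**
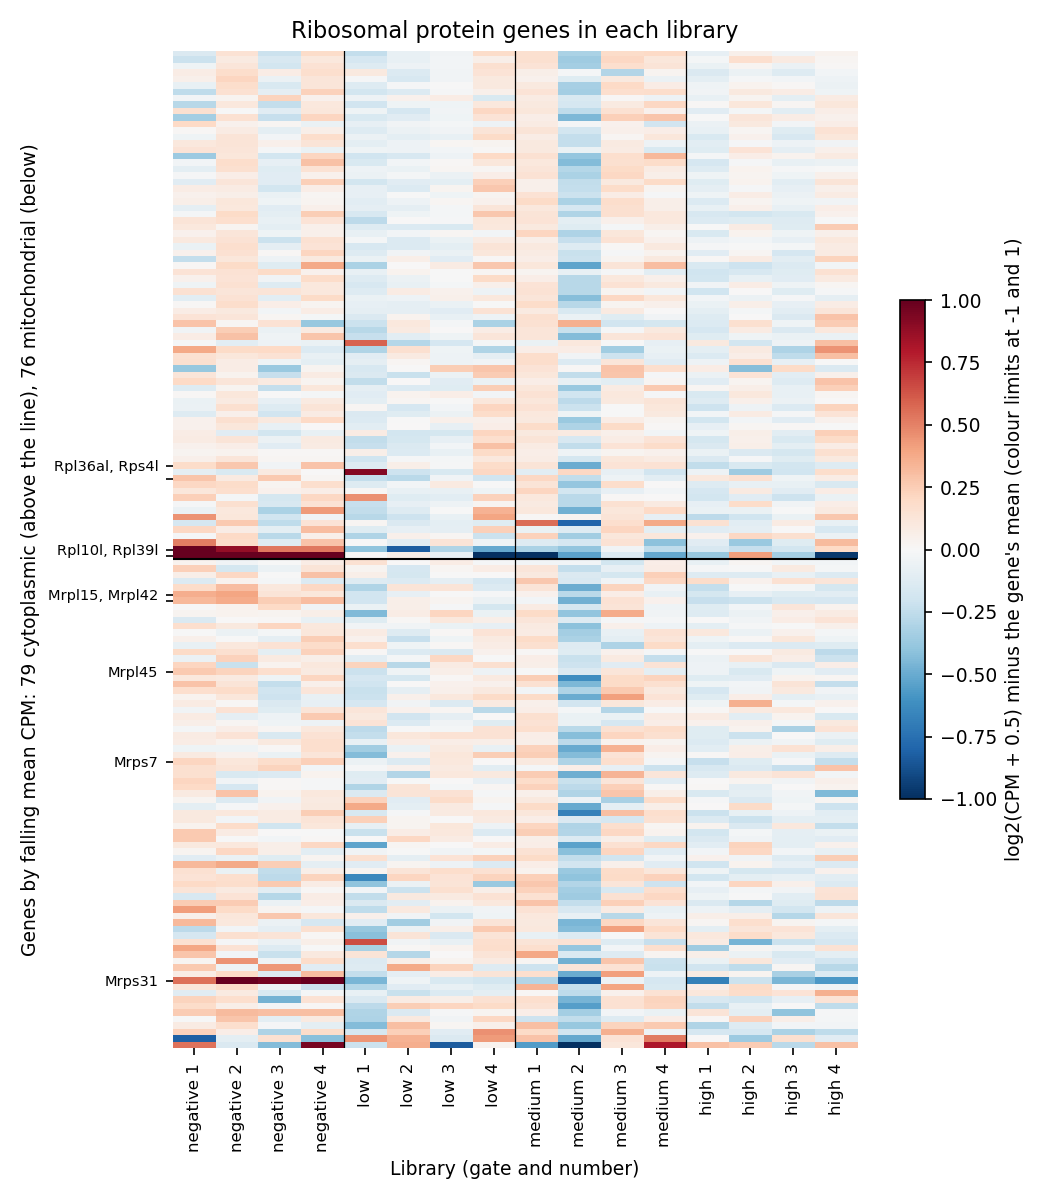
Level of the 155 tested members in each library, as log2(CPM + 0.5) minus the gene's mean over 16 libraries, with colours capped at -1 and 1. Rows run by falling mean CPM within the 79 cytoplasmic (above the line) and 76 mitochondrial members (below), and columns are libraries by gate. Most rows are pale, medium 2 is a blue column in both classes, and Rpl10l, Rpl39l and Mrps31 are red in the negative gate.

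The high gate was compared with the negative gate to ask which ribosomal protein genes differ with FOXA2 level, by edgeR's quasi-likelihood test with Benjamini-Hochberg adjustment over all genes tested and a threshold of 0.05. Of all 13891 genes, 17% were called, 8.42% higher and 8.55% lower. Among the 79 cytoplasmic members 0 were higher and 3 lower (3.8%), namely Rpl39l, Rpl10l and Rpl36al. Among the 76 mitochondrial members 0 were higher and 5 lower (6.58%), namely Mrps31, Mrpl42, Mrpl15, Mrps7 and Mrpl45. At an unadjusted p under 0.05 there were 0 higher members, and 9 cytoplasmic (11.4%) and 13 mitochondrial ones (17.1%) were lower, beside 14% of all genes higher and 14.8% lower. DESeq2 called 0 higher in either class, and 3 of 79 cytoplasmic (3.8%) and 8 of 76 mitochondrial members (10.5%) lower, beside 9.55% of all genes. The median log2 fold change, high over negative, was -0.07 over cytoplasmic, -0.11 over mitochondrial and 0.00 over all genes tested, and 61 of 79 and 60 of 76 members were below 0. The medians stayed below 0 under each other scaling tried (-0.04 to -0.07 and -0.08 to -0.11). Leaving out 1 library moved the cytoplasmic median most, to -0.03 without high 1 or high 3, -0.04 without negative 2 and -0.10 without high 4, while the mitochondrial median ran from -0.09 to -0.14. The 95% interval lay within 1.5-fold either way for 75 of 79 cytoplasmic and 69 of 76 mitochondrial members, so larger differences were outside the intervals of most.

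The shares of members called changed with the libraries that were fitted. Without low 1 and medium 2, the same 3 and 5 members and 15 others were lower, 11 of 79 cytoplasmic (13.9%) and 12 of 76 mitochondrial (15.8%), against 10.4% of all genes lower in that fit. The 8 added cytoplasmic members had log2 fold changes of -0.26 to -0.19 and the 7 added mitochondrial ones of -0.39 to -0.25, close to their values with all libraries. Leaving out medium 2 alone gave 7 of 79 and 11 of 76 lower members, against 9.95% of all genes lower, and a fit of the 8 high and negative libraries by themselves gave 8 and 11, against 9.98% of all genes lower. With negative 1, high 2 or high 4 left out, 3 mitochondrial members were lower, beside 1063 of 14140, 981 of 14188 and 1015 of 14167 genes. Counted by libraries, 7 cytoplasmic and 18 mitochondrial members had all 4 high libraries below all 4 negative ones, beside 11.1% of all genes, and 0 and 2 had all high libraries above, beside 10.5% of all genes.

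**Figure D3:**
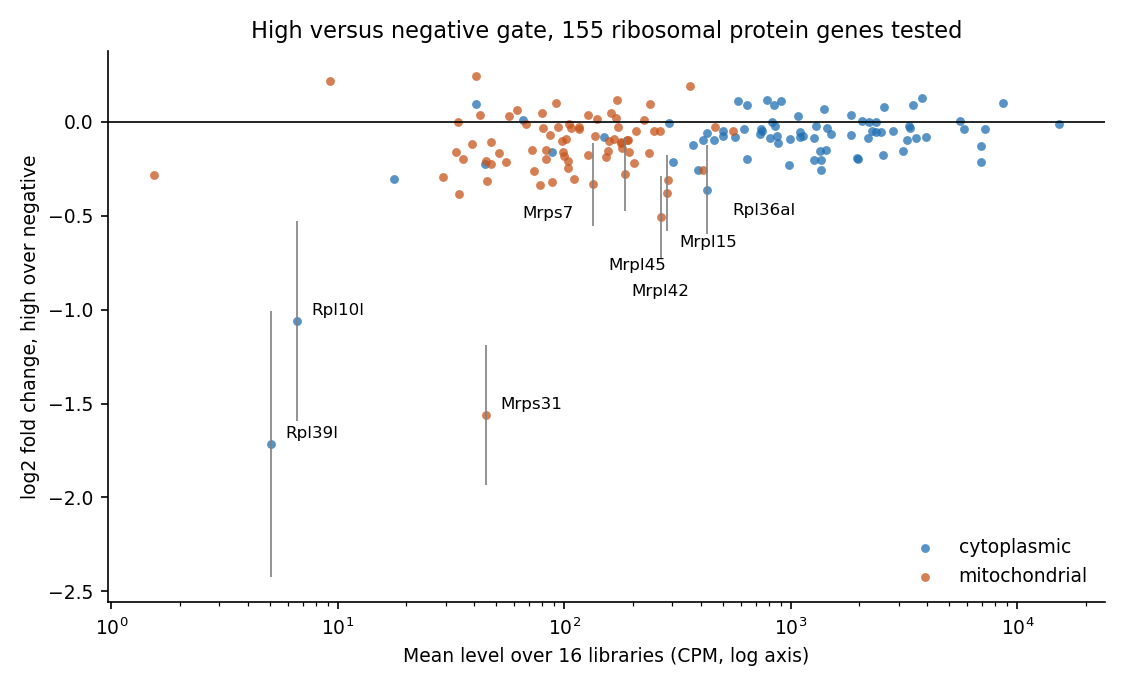
Log2 fold change of the high over the negative gate (y axis) against mean CPM over 16 libraries (x axis, log scale) for 79 cytoplasmic and 76 mitochondrial members. Grey lines are 95% intervals of the 8 called members, which are named. Rpl39l, Rpl10l and Mrps31 lie below -1 and nearly all other members between -0.4 and 0.25.

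Rpl39l, the copy of Rpl39, a small protein that lines the tunnel through which the new chain leaves the ribosome, is best known from the testis. Its gene lies at chr16:10170226-10174911 (GRCm38, plus strand), has 3 exons, and its coding sequence is 85.0% identical to that of Rpl39 over 153 bases. Rpl39l had 12.6, 11.4, 10.3 and 10.0 CPM in the negative libraries. It had 4.04, 4.23, 3.80 and 1.59 CPM in the low, 0.785, 2.63, 3.62 and 2.68 in the medium, and 2.99, 5.55, 3.07 and 1.82 in the high libraries. All 12 libraries of the low, medium and high gates lay below all 4 negative ones, and the low, medium and high gates overlapped one another. Rpl39l was lower in the high gate by a log2 fold change of -1.72 (SE 0.347, 0.304-fold, adjusted p = 0.00061), in the medium gate by -2.16 (SE 0.350, adjusted p = 6.69e-05) and in the low gate by -1.69 (SE 0.333, adjusted p = 0.00161), each against the negative gate. The parent gene Rpl39, on the X chromosome, averaged 972 ± 96.6 CPM in the high and 1034 ± 103 CPM in the negative gate (SD, n = 4 each), with a log2 fold change of -0.09 (95% interval -0.30 to 0.12). None of the 351 50-base words of the Rpl39l end occurs in Rpl39 or any other annotated gene.

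Rpl10l, an intronless copy of the X-linked Rpl10, stands in for its parent in male germ cells of the mouse. It lies at chr12:66283379-66284401 (minus strand), and its coding sequence is 84.7% identical to that of Rpl10 over 642 bases. Rpl10l had 17.6, 11.4, 8.89 and 8.88 CPM in the negative libraries. It had 4.42, 3.17, 4.79 and 4.05 CPM in the low, 4.71, 4.44, 5.86 and 4.94 in the medium, and 5.31, 5.04, 5.23 and 6.98 in the high libraries. Again all 12 low, medium and high libraries lay below every negative library, with negative 1 the highest. The log2 fold change was -1.06 in the high gate (SE 0.261, adjusted p = 0.00431), -1.22 in the medium gate (SE 0.257, adjusted p = 0.00174) and -1.49 in the low gate (SE 0.259, adjusted p = 0.00041) against the negative gate. Rpl10 averaged 827 ± 62.9 CPM in the high and 827 ± 87.8 CPM in the negative gate (SD, n = 4 each; log2 fold change 0.00, 95% interval -0.23 to 0.23), but all of the words in its end occur in other genes, so its counts may hold reads of copies.

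Rpl36al, a single-exon copy of the X-linked Rpl36a at chr12:69182731-69184083 (minus strand), is a widely expressed large-subunit protein whose coding sequence is 87.7% identical to its parent's. It had 358, 381, 374 and 387 CPM in the high and 481, 511, 415 and 517 CPM in the negative libraries. The high libraries lay below all negative ones (log2 fold change -0.36, SE 0.115, adjusted p = 0.029). The call was lost without negative 1, 2 or 4 or high 1, 2 or 3 (adjusted p up to 0.0888). The low (433 ± 38.5 CPM) and medium gates (424 ± 82.4 CPM; SD, n = 4 each) lay between and did not pass the test against the negative gate, and medium 2, at 301 CPM, was far below the other medium libraries (463 to 468). Of its end words 77.8% occur in other genes, among them the overlapping Gm49383, which limits what its counts can be assigned to. Rpl36a averaged 2036 ± 111 CPM in the high and 2032 ± 151 CPM in the negative gate (SD, n = 4 each).

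The cytoplasmic members called in any comparison were thus Rpl39l, Rpl10l, Rpl36al and, in the low gate, Rps4l, and each is a second copy of another ribosomal protein gene. Of the 9 duplicated or tissue-restricted genes listed, which include Rpl7l1 and Rpl22l1 from outside the name rule, 8 were tested and 4 were lower in the high gate: the 3 named above and Rpl7l1 (log2 fold change -0.35, SE 0.108, adjusted p = 0.0248), a paralog of Rpl7. The call of Rpl7l1 was lost without negative 2 or 4 or high 1 or 4 (adjusted p up to 0.072). Rps27l, the p53-inducible paralog of Rps27, had a log2 fold change of -0.26 (95% interval -0.56 to 0.04), and Rps27rt, a retrocopy, of 0.01 (-0.39 to 0.41). Rpl22l1, the paralog of Rpl22, was at -0.21 (-0.55 to 0.13). With 3.8% of cytoplasmic members lower beside 8.55% of all genes, and these names picked with earlier results known, the list is a description and not a test of copies against parents.

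**Figure D4:**
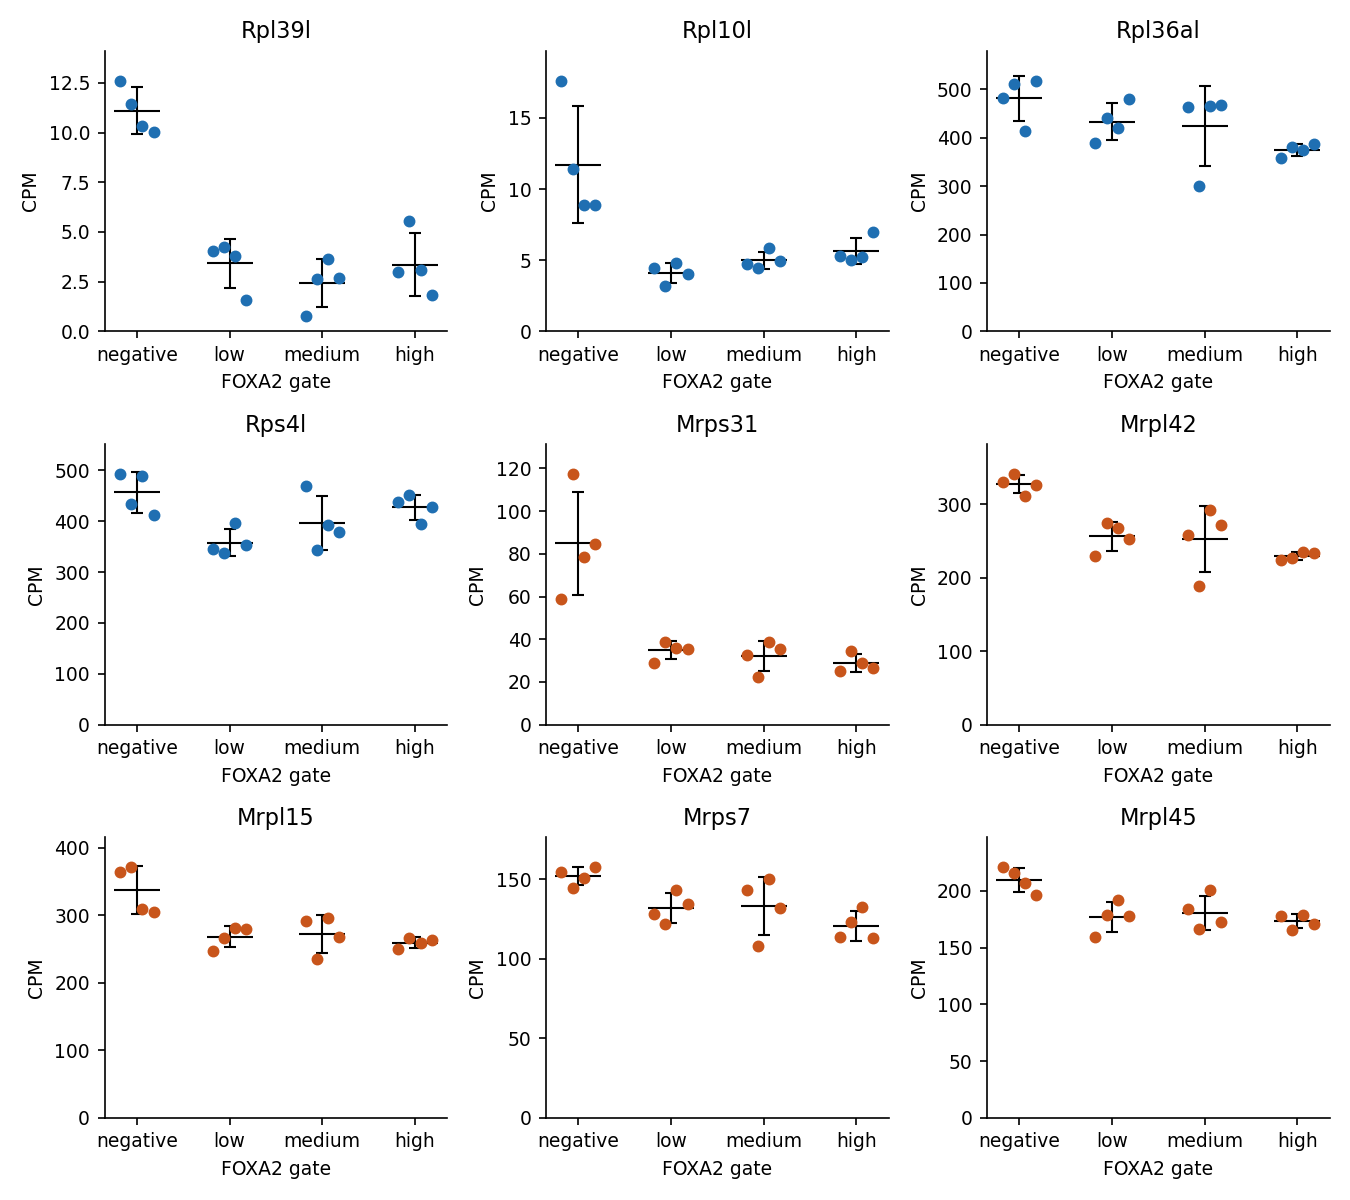
CPM of the 9 members called in any comparison, by FOXA2 gate, cytoplasmic in blue and mitochondrial in orange. Points are libraries, bars the mean and SD of 4, and every axis starts at 0. Rpl39l, Rpl10l and Mrps31 fall apart into the negative gate and the rest, while Rpl36al, Mrpl42, Mrpl15, Mrps7 and Mrpl45 are lower by a smaller step.

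Mrps31, a protein of the small mitochondrial subunit first described as an autoantigen of diabetes, differed most among the mitochondrial members. Its gene, with 7 exons, lies at chr8:22411361-22429665 (plus strand), and none of its end words occurs in another gene. Mrps31 had 59.0, 117, 78.4 and 84.6 CPM in the negative libraries. It had 29.0, 38.9, 36.0 and 35.3 CPM in the low, 32.6, 22.2, 38.6 and 35.6 in the medium, and 24.9, 34.6, 29.1 and 26.7 in the high libraries. The negative libraries spread widely but all lay above the other 12, which overlapped between gates. The log2 fold change was -1.56 in the high gate (SE 0.181, 0.339-fold, adjusted p = 3.53e-07), -1.39 in the medium gate (SE 0.177, adjusted p = 3.06e-06) and -1.29 in the low gate (SE 0.176, adjusted p = 2.2e-05) against the negative gate, and it stayed called in the high gate with any library left out (adjusted p up to 7.1e-06).

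Mrpl42 and Mrpl15, both of the large mitochondrial subunit, followed with smaller differences. Mrpl42 (chr10:95480805-95501940, minus strand) had 224, 227, 235 and 234 CPM in the high and 330, 341, 311 and 326 CPM in the negative libraries (log2 fold change -0.51, SE 0.108, adjusted p = 0.00109). Mrpl15 (chr1:4773206-4785739, minus strand) had 249, 267, 259.5 and 263 CPM in the high and 364, 371, 309 and 305 CPM in the negative libraries (log2 fold change -0.38, SE 0.0992, adjusted p = 0.0076). In neither gene did the groups overlap, and both calls held with any library left out (adjusted p up to 0.00613 and 0.038). Mrpl42 was also lower in the medium gate (-0.37, SE 0.108, adjusted p = 0.0254), a call lost without negative 1, 2 or 4 or medium 1 or 2 (adjusted p up to 0.0806). Mrpl15 was just past the threshold there (-0.31, SE 0.0989, adjusted p = 0.0499), and the call was lost in 12 of 16 leave-one-out fits, all but those without negative 3, negative 4, low 1 or medium 3 (adjusted p up to 0.178).

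Mrps7, which binds the ribosomal RNA of the small subunit, and Mrpl45, which sits at the exit of the large subunit and holds it to the inner membrane, were closest to the threshold. Mrps7 (chr11:115603925-115608036, plus strand) had 114, 123, 133 and 113 CPM in the high and 155, 144, 151 and 157 CPM in the negative libraries (log2 fold change -0.33, SE 0.107, adjusted p = 0.0308). Its call was lost without negative 1, 3 or 4 or high 1, 2 or 4 (adjusted p up to 0.0978), and its locus overlaps Gga3 and Mif4gd. Mrpl45 (chr11:97315716-97329920, plus strand) had 178, 166, 178 and 171 CPM in the high and 221, 215, 207 and 196 CPM in the negative libraries (log2 fold change -0.28, SE 0.0966, adjusted p = 0.0468). High and negative libraries did not overlap for either gene. The call of Mrpl45 was lost in 13 of 16 leave-one-out fits, all but those without low 1, medium 2 or medium 3 (adjusted p up to 0.12). Just outside the threshold were Mrpl51 (-0.32, adjusted p = 0.0503), Mrpl48 (-0.39, adjusted p = 0.0555) and Mrps23 (-0.34, adjusted p = 0.0555), which DESeq2 called.

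Markers of other cell types also differed between the gates. Of 12 pluripotency genes 11 were tested, and all 11 were lower in the high, medium and low gates against the negative gate. Their summed levels were 657 to 1133 CPM in the negative, 115 to 215 in the low, 75.3 to 99.8 in the medium and 65.9 to 102 CPM in the high libraries. On this sum the negative libraries lay above all others, and the low libraries above all medium and high ones. Of the 11 genes, 3 were lower in high against low (3.08% of all genes) and 0 in medium against low (0.223% of all genes). Pou5f1 had a mean of 2.48 CPM in the negative gate and 0 in the high gate. In the high against the negative gate, 3 of 3 neuron markers tested were lower, and the list summed to 46.8 to 69.6 CPM in the high and 130.4 to 215 CPM in the negative libraries. Of neural tube markers 5 of 5 tested were lower (list sums of 62.8 to 87.5 CPM in the high and 290.5 to 341 CPM in the negative libraries). In the low against the negative gate, 2 of 3 neuron markers and 0 of 5 neural tube markers were lower. The neural tube list summed to 278 to 345 CPM in the low libraries. In the high against the negative gate, 4 of 4 floor plate markers tested were higher. Their list summed to 23.9 to 25.2 CPM in the negative, 33.3 to 42.3 in the low, 78.8 to 104 in the medium and 164 to 203 CPM in the high libraries. Of endoderm markers 2 of 4 tested, Sox17 and Ttr, were higher. Gata4 (log2 fold change -0.90, adjusted p = 0.11) and Foxa3 (-0.27, adjusted p = 0.811) were below 0 and did not pass the test. The list of 7 endoderm genes summed to 137 to 170.2 CPM in the high and 14.5 to 23.4 CPM in the negative libraries. The part of these cells in the results on ribosomal protein genes was not tested.

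The cytoplasmic members with well-known roles listed here did not pass the test between the high and negative gates. Of all genes 17% were called, and of cytoplasmic members 3.8%, so 0 calls in lists this small say little about them. None of the 6 genes whose mutation alters skeletal or pigment patterning in the mouse (Rpl38, Rpl24, Rpl27a, Rps19, Rps20 and Rps7) was called. Rpl38, needed for axial skeleton patterning through translation of Hox mRNAs, had 2262, 2517, 2416 and 2436 CPM in the high and 2491, 2874, 2400 and 3108 CPM in the negative libraries, which overlapped (log2 fold change -0.18, 95% interval -0.40 to 0.05). Rps19, the gene most often mutated in Diamond-Blackfan anaemia, had 3793, 4065, 3814 and 4082 CPM in the high and 3105, 4059, 3191 and 4049 CPM in the negative libraries, also overlapping (0.13, -0.07 to 0.33). Rpl24 was at 0.09 (-0.10 to 0.28), Rpl27a at -0.08 (-0.27 to 0.11), Rps20 at 0.03 (-0.26 to 0.32) and Rps7 at -0.15 (-0.36 to 0.05). Rpl5 and Rpl11, which with the 5S RNA form the particle that binds MDM2, were at -0.06 (-0.48 to 0.36) and -0.08 (-0.27 to 0.12), and Rpl5 was highest in low 1, at 789 CPM beside 326 to 482 CPM in the other 15 libraries. Of 11 genes mutated in Diamond-Blackfan anaemia 0 were called (median -0.07), and of 7 proteins around the polypeptide exit 0 were called (median -0.09). DESeq2 called none of these list members, beside 1246 of 13891 genes higher and 1326 lower. Of all genes, 14% were higher and 14.8% lower at an unadjusted p under 0.05 by edgeR. At an unadjusted p under 0.05 the count was 0 of 6, 0 of 2 and 0 of 11 in the first 3 lists and 2 of 7 in the exit list, namely Rpl31 (log2 fold change -0.21, adjusted p = 0.113) and Rpl35 (-0.19, adjusted p = 0.166), which were both lower without low 1 and medium 2 (adjusted p = 0.0458 and 0.044).

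Among mitochondrial landmarks, Mrpl12, which also binds the mitochondrial RNA polymerase, was at -0.09 (95% interval -0.33 to 0.14) and Mrps12, of the decoding centre, at -0.16 (-0.37 to 0.05). The 3 Mrps18 paralogs, which sit at different sites of the mitochondrial ribosome, were at -0.03 (Mrps18a, -0.30 to 0.25), -0.28 (Mrps18b, -1.43 to 0.86) and -0.08 (Mrps18c, -0.35 to 0.19). Mrps18b, at 0.329 to 3.17 CPM, had the widest of these intervals. With Mrpl45, described above, the landmark list had 1 of 6 lower and 6 of 6 fold changes below 0 (median -0.13), beside 8.55% of all genes lower. With 1 library left out, the fold changes of Mrps18a and Mrps18b rose to as much as 0.02 and 0.11.

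In the medium gate against the negative gate, 8.46% of all genes were called, 4.24% higher and 4.22% lower. The lower members were 2 of 79 cytoplasmic (Rpl39l and Rpl10l) and 3 of 76 mitochondrial (Mrps31, Mrpl42 and Mrpl15), and 0 were higher by edgeR or DESeq2, with 1 cytoplasmic and 0 mitochondrial members higher at an unadjusted p under 0.05. At that unadjusted p, 1409 of 13891 genes were higher. The count of lower mitochondrial members was 1 without negative 1, negative 2, medium 1 or medium 2, beside 434 to 526 genes lower in those fits. In the low gate against the negative gate, 3.76% of all genes were called, 1.47% higher and 2.29% lower. The lower members were 3 of 79 cytoplasmic (Rpl39l, Rpl10l and Rps4l) and 1 of 76 mitochondrial (Mrps31), and 0 were higher by either tool, with 0 and 1 higher at an unadjusted p under 0.05. Of all 13891 genes, 947 were higher at that unadjusted p. Without medium 2, 3 mitochondrial members were lower, and without negative 4, 2 were, Mrpl15 in both and Mrpl42 without medium 2. Of all genes, 385 of 14187 were lower without medium 2 and 287 of 14142 without negative 4.

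Rps4l, an autosomal copy of the X-linked Rps4x that GENCODE lists as a transcribed processed pseudogene overlapping Tmtc1 (chr6:148354656-148355598), had its lowest values in the low gate. It had 493, 433, 488 and 413 CPM in the negative, 345, 337, 396 and 354 in the low, 468, 343, 393 and 378 in the medium and 437, 451, 394 and 427 in the high libraries. The low libraries lay below all negative ones (log2 fold change -0.35, SE 0.101, adjusted p = 0.0447), and the high libraries overlapped the negative ones (-0.09, 95% interval -0.30 to 0.11). The call was lost in 12 of 16 leave-one-out fits, all but those without negative 4, low 3, medium 1 or medium 2 (adjusted p up to 0.154). Rps4x averaged 2311 ± 303 CPM in the low and 2290 ± 197 CPM in the negative gate (SD, n = 4 each).

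Among the low, medium and high gates, no member was called. In the high against the low gate, 6.87% of all genes were called, 3.79% higher and 3.08% lower, but 0 of 155 members. DESeq2 also called 0 members, beside 626 of 13891 genes higher and 505 lower. At an unadjusted p under 0.05 there were 2 cytoplasmic and 5 mitochondrial members, beside 2517 of 13891 genes. In the high against the medium gate 0.914% of all genes were called, 0.367% higher and 0.547% lower, and in the medium against the low gate 0.713%, 0.49% higher and 0.223% lower. Members called were 0 in both by either tool. DESeq2 called 83 genes higher and 100 lower in high against medium, and 106 higher and 55 lower in medium against low. At an unadjusted p under 0.05 there were 0 cytoplasmic members and 1 mitochondrial member in each. Of all 13891 genes, 1243 reached that p in high against medium and 975 in medium against low. Without low 1 and medium 2, Rpl36al was lower in high against medium (log2 fold change -0.32, adjusted p = 0.0298) and in high against low (-0.27, adjusted p = 0.0421), and Mrps23 in high against medium (-0.43, adjusted p = 0.0294). In that fit 153 of 14117 genes were lower in high against medium and 487 in high against low. Without medium 2 alone, 1 mitochondrial member was lower in high against medium, beside 121 of 14187 genes.

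Some ribosomal proteins have symbols that the name rule does not match. Among cytoplasmic ones, Rack1, a scaffold protein of the small subunit (log2 fold change -0.22, adjusted p = 0.116), and Rpsa, also of the small subunit (0.32, adjusted p = 0.112), did not pass the test in the high against the negative gate by edgeR or DESeq2. Without low 1 and medium 2, Rack1 was lower (adjusted p = 0.0484) and Rpsa higher (adjusted p = 0.0337), and Rpsa was also called without low 1 or without high 3. Of 5 mitochondrial ones, Gadd45gip1 was lower in the high (-0.35, SE 0.105, adjusted p = 0.0186) and the medium gate (-0.36, SE 0.105, adjusted p = 0.0265), calls lost without high 4 (adjusted p = 0.0782) and without negative 1, 2 or 4 or medium 2 or 3 (adjusted p up to 0.075).

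Ribosome biogenesis genes, whose products make ribosomal RNA and assemble it with these proteins, were set beside the members. Of 30 ribosome biogenesis genes, 16 were lower and 0 higher in the high gate, beside 8.55% of all genes lower, and all 30 fold changes were below 0 (median -0.34). The count ran from 10 (without high 1) to 17 over the leave-one-out fits. Mrto4, an assembly factor of the large subunit, had 147, 172, 151 and 143 CPM in the high and 210.4, 213, 207 and 199 CPM in the negative libraries, which did not overlap (log2 fold change -0.44, 95% interval -0.64 to -0.23, adjusted p = 0.00232). Nhp2 (-0.47, SE 0.112, adjusted p = 0.00311) and Dkc1 (-0.39, SE 0.0966, adjusted p = 0.00467), of the particle that pseudouridylates ribosomal RNA, and Bop1 (-0.45, SE 0.108, adjusted p = 0.00354), of the PeBoW complex, were lower as well. In the medium gate 2 of the 30 were lower (Mrto4 and Bop1, median -0.26), and in the low gate 0 (median -0.14), where DESeq2 called 1. The call of Bop1 in the medium gate was lost in 8 and that of Mrto4 in 2 of 16 leave-one-out fits, and the count was 1 without negative 1, negative 4, low 3 or high 1 and 0 without negative 2 or medium 2. Without medium 2, 2 were lower in the low gate. Summed over the list, levels were 11170 ± 514, 10118 ± 594, 9549 ± 665 and 8832 ± 316 CPM in the negative, low, medium and high gates (SD, n = 4 each).

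**Figure D5:**
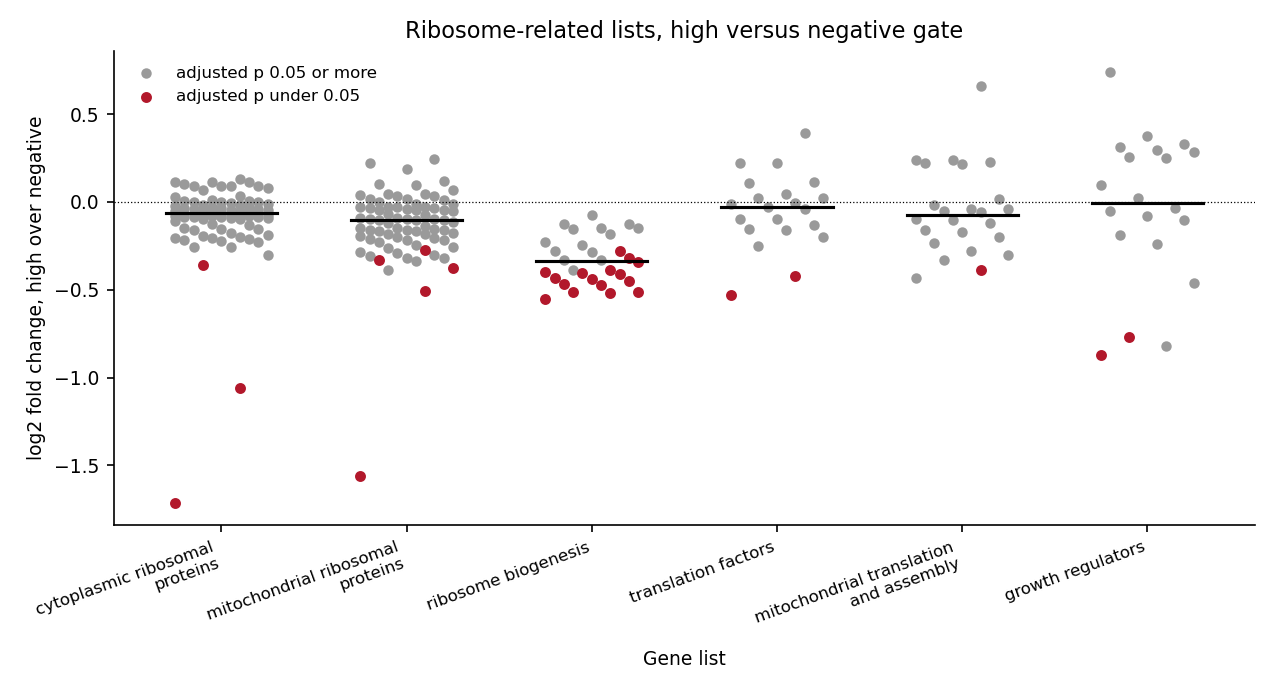
Log2 fold change of the high over the negative gate for each tested gene of 6 lists, with red points for adjusted p under 0.05 and black bars for medians. The ribosome biogenesis list lies wholly below 0 with 16 of 30 red, while both ribosomal protein classes, the translation factors, the mitochondrial translation list and the growth regulators have medians between -0.11 and 0.00.

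Of all genes 8.55% were lower in the high gate, which is the share to read the counts of the other lists against. Of 21 translation factors 2 were lower (Eif4a2 and Eif2s1, median -0.03), and of 24 mitochondrial translation and assembly factors 1 was, the ribosome recycling factor Mrrf (-0.39, SE 0.123, adjusted p = 0.028). Eif2s1 was not called without high 1 or 4, Eif4a2 without negative 4 or high 3, or Mrrf without negative 1 or high 1, 3 or 4 (adjusted p up to 0.0569, 0.0989 and 0.0882). Of 20 growth regulators tested 2 were lower: Mycl (-0.77, SE 0.185, adjusted p = 0.00351) and Eif4ebp1, a target of mTOR that holds back cap-dependent translation (-0.87, SE 0.0986, adjusted p = 1.11e-07). Eif4ebp1 was also lower in the medium (-0.73, SE 0.0983) and the low gate (-0.62, SE 0.0981, adjusted p = 0.000134).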

How the data were processed

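The authors deposited 1 table of unnormalized counts (35976 genes, 16 libraries); its columns were matched to samples by name. Per the submitters' processing notes, cutadapt 1.18, STARsolo 2.7.9a, DESeq2 1.42.0 and GRCm38 were used; the annotation, the strand and the treatment of multi-mapping reads and molecular identifiers were not given in the sources used here. In R 4.3.3, edgeR 4.0.16 (filterByExpr, TMM, robust quasi-likelihood fit over all 4 gates, pairwise contrasts) tested 13891 genes, Benjamini-Hochberg threshold 0.05. TMM factors ran from 0.969 to 1.05. CPM are on TMM-scaled totals, and deviations use log2(CPM + 0.5). Fits were tested on simulated data. Named genes were the called members, the duplicated, 5S, patterning and mitochondrial lists whole, and the genes with the smallest p of each other list. Members and lists were chosen with earlier results of these data known. Alternatives were other scalings (DESeq2's RLE, totals, factors from other genes), DESeq2 1.42.0, no filter, thinning to 3268948 counts, a replicate block, 2-group fits and left-out libraries. Replicates differed by more than counting noise (chi-square per degree of freedom at least 4.49 over 24 pairs within gates). Intervals cover the spread between libraries, and floors cover counting error only. The count over the list of cytoplasmic ribosomal proteins outside the name rule is not reported here.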

Additional observations from a re-analysis of the deposited data

Results flagged for a closer look

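Each of 104 groups of 4 libraries (the shares and the named members, by gate) was screened for a library far from the other 3 (Dixon's test, 95% level), and 7 were marked, where chance marks about 1 in 20 groups. Medium 2 accounted for 4 of them. Its cytoplasmic share was 13.62%, beside 16.02% to 16.2% in the other medium libraries. Its Rpl36al was 300.8 CPM, beside 463.2 to 468.2. Rpl38 was 1878 CPM there, beside 2731 to 2885, and Rps7 1097 CPM, beside 1382 to 1433. Rpl39l was 1.591 CPM in low 4, beside 3.801 to 4.227 CPM in the other low libraries. Rpl10l was 6.982 CPM in high 4, the shallowest library, beside 5.045 to 5.307 CPM. Mrps18b was 1.076 CPM in high 3, beside 1.766 to 1.824 CPM.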

How the results depend on the processing

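No call reversed direction, and the calls of Rpl39l, Rpl10l, Mrps31, Mrpl42 and Mrpl15 in the high gate held in each alternative. Uncalled fold changes could change sign with 1 library left out, as for Mrps18b (-0.50 to 0.11) and Rps20 (-0.09 to 0.12) in the high against the negative gate. In the medium against the negative gate, the class medians also crossed 0 (-0.06 to 0.05 cytoplasmic, -0.10 to 0.03 mitochondrial). Counts of lower members moved as follows. In the high against the negative gate, mitochondrial counts were 8 with DESeq2, 3 with no filter, 12 without low 1 and medium 2, and 11 in a fit of those groups alone; cytoplasmic counts were 11 and 8 in these last fits. In the low against the negative gate, mitochondrial counts were 3 with DESeq2, 2 without low 1 and medium 2, and 2 in a fit of those groups alone. In the medium against the negative gate, 1 mitochondrial member was lower in a fit of those groups alone, and 1 cytoplasmic member was higher with no filter. Without low 1 and medium 2, 1 cytoplasmic and 1 mitochondrial member were lower in the high against the medium gate and 1 cytoplasmic member in the high against the low gate. The cause was not tested. Over fits that left out 1 library, lower counts ran from 2 to 7 cytoplasmic, 3 to 11 mitochondrial and 10 to 17 biogenesis genes in the high against the negative gate, from 1 to 3 mitochondrial in the medium and in the low against the negative gate, and from 0 to 1 mitochondrial in the high against the medium gate. Of biogenesis genes, the medium gate had 4 lower with DESeq2, 1 with no filter, 1 without low 1 and medium 2 and 0 in a fit of those groups alone, and 0 to 3 with 1 library left out. The sample titles run through the 4 gates number by number, but what a shared number stands for is not given. Same-numbered libraries were not taken as pairs in the main fit. Of 24 such pairs, 6 had an r over 0.1 (-0.087 to 0.226). The mean r of these 24 was 0.0443, against -0.0145 for the 72 other pairs. Of 16 libraries, 8 correlated best with their own number, out of 4 numbers to match. Whether the numbers mark pairs was not tested. A replicate block gave 3 cytoplasmic and 6 mitochondrial members lower in the high gate, and 2 mitochondrial members (Mrpl15 at adjusted p = 0.0524) and 4 biogenesis genes lower in the medium gate. Depth limits Rpl39l, Rpl10l and Mrps18b most, since 1 count is 0.102 to 0.304 CPM.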
